A study of Mus musculus with 6 samples.

Results

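The lymphatic endothelial identity genes form a set of 10: Prox1, Flt4, Lyve1, Mmrn1, Reln, Nts, Ccl21a, Sox18, Nr2f2 and Adgrg3. They were found by symbol among the 49671 genes of each count table, and 9 of the 10 had reads. RNA was sequenced from 6 samples of Podoplanin-positive cells sorted from mouse pancreatic tumours. The hosts were C57BL/6J mice carrying Rosa-mTmG and Fabp4-Cre, in which cells are red (Tomato) until Cre turns them green (GFP). At 8 weeks of age the pancreas received FC1199 cells (murine pancreatic cancer), and the resulting tumours were removed 4 weeks later, at 12 weeks. The GFP group (3 libraries) is labelled as cancer-associated fibroblasts (CAFs) derived from stellate cells, and the Tomato group (3 libraries) as CAFs of non-stellate origin. Both groups carry the same alleles and come from hosts with the same tumour cells, and they were parted by reporter colour. The Fabp4 promoter is active in fat cells and is known to drive Cre in endothelium as well.

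Lymphatic endothelial cells line the vessels that drain tissue fluid and carry immune cells to lymph nodes. They arise mainly from veins, where the transcription factors SOX18 and COUP-TFII (the product of Nr2f2) switch on Prox1, and PROX1 then maintains lymphatic fate together with the VEGF-C receptor encoded by Flt4. Podoplanin, the protein used for the sort, is itself a classical surface marker of lymphatic endothelium as well as of activated fibroblasts.

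The set was selected on the measured difference between GFP and Tomato libraries, together with the known roles of the genes. That difference is therefore given as a description, with no test. Reads per library ran from 33378377 to 42154933. Levels are CPM, reads scaled to library size, after TMM scaling, which corrects for library composition. In bulk libraries, fewer cells of a type and less RNA per cell cannot be told apart. The labels do not say whether libraries of a group came from separate animals, so p-values measure only the spread between these libraries, which may be technical. Fibroblast markers were abundant in both fractions: 10 fibroblast markers summed to 130276 to 145326 CPM in GFP libraries and 62958 to 96896 in Tomato libraries. The 9 lymphatic genes with reads summed to 406 to 618 CPM in GFP and 54.6 to 129 CPM in Tomato. Pdpn, the gene of the gate, stood at 404 ± 35.5 CPM in GFP and 433 ± 19.6 in Tomato (SD, n = 3), a log2 difference of -0.10 by edgeR with adjusted p = 0.481. Fabp4, whose promoter drives Cre, stood at 17.1 ± 1.56 and 18.2 ± 0.907 CPM, a log2 difference of -0.09 with adjusted p = 0.551.

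One member, Ccl21a, had no reads, and its sequence shows a property that may bear on this. It encodes a chemokine with which lymphatic vessels attract dendritic cells, and it had 0 reads in all 6 libraries at chromosome 4, 42772860 to 42773993 (ENSMUSG00000094686), and 0 at a second identifier on an unplaced scaffold. A count of 0 allows up to 3 counts, or 0.0712 to 0.0899 CPM per library before scaling, for reads assigned to that gene alone; this covers counting error only. Ccl21b, a copy on the same chromosome, had 1 to 6 reads per library. Its coding sequence of 402 bases differs from that of Ccl21a at 2 positions, T84A and C194T, where Ccl21a is given first and positions count from the first base of the start codon. The following stretch, positions 54 to 133 of both coding sequences in GENCODE M21, shows the first of them in capitals.
Ccl21a: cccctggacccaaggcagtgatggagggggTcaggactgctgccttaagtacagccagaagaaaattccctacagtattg
Ccl21b: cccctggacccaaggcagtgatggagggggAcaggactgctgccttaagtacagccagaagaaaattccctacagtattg
Of 353 windows of 50 bases in the Ccl21a coding sequence, 253 (71.7%) occur unchanged in Ccl21b. With windows of 100 bases, 119 of 303 (39.3%) do. The rest of the Ccl21a transcript of 870 bases was not compared, nor was the copy on the scaffold. No source used here says how reads fitting several copies were handled. The counts therefore do not show whether Ccl21 was expressed, and Ccl21a is left out of the levels that follow.

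Among the transcription factor genes, Prox1, the determinant of lymphatic fate (chromosome 1, 190118035 to 190170714, ENSMUSG00000010175), had 36.0, 21.3 and 23.9 CPM in GFP libraries 1, 2 and 3. In Tomato libraries 1, 2 and 3 it had 5.83, 2.99 and 1.11 CPM, from 250, 116 and 41 reads. Every GFP library was above every Tomato library, by 3.64 times at the closest, and the Tomato libraries differed among themselves by 5.24 times. The log2 fold difference from the edgeR fit was 3.02 ± 0.52 (SE).

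Sox18 (chromosome 2, 181669836 to 181671640, ENSMUSG00000046470), which encodes a factor that induces Prox1 in veins and is also active in other young endothelium, had 12.8, 11.8 and 9.98 CPM in GFP. It had 4.15, 3.37 and 3.91 CPM in Tomato. The fractions did not overlap, but here the Tomato libraries were nearly level, within 1.23 times of each other. The log2 fold difference was 1.60 ± 0.15.

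Nr2f2 (chromosome 7, 70351944 to 70366735, ENSMUSG00000030551), the COUP-TFII gene, is expressed in veins and lymphatic vessels and in many mesenchymal cells. Its CPM were 46.5, 54.8 and 49.2 in GFP and 37.6, 32.6 and 24.3 in Tomato. It had the smallest log2 fold difference of the 9 genes, 0.67 ± 0.15, and the lowest GFP library was 1.24 times the highest Tomato library. Nr2f2 overlaps the antisense gene B130024G19Rik over 643 exonic bases, and 96.5% of the reads found on either strand of Nr2f2 were kept in the count over both strands. Prox1 and Reln also overlap antisense genes, over 133 and 246 exonic bases, with 96.3% and 96.7% of such reads kept.

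Among the cell surface genes, Flt4 (chromosome 11, 49609263 to 49652739, ENSMUSG00000020357), which encodes the receptor through which VEGF-C and VEGF-D drive lymphatic growth, had 75.7, 46.6 and 40.8 CPM in GFP. It had 10.2, 7.36 and 5.70 CPM in Tomato. GFP library 1 stood well above the other GFP libraries, and the lowest GFP value was 3.99 times the highest Tomato value (log2 fold difference 2.81 ± 0.30). Lyve1 (chromosome 7, 110850607 to 110863239, ENSMUSG00000030787) encodes a hyaluronan receptor of lymphatic capillaries that some tissue macrophages also carry. Its CPM were 126, 116 and 81.8 in GFP and 22.7, 14.0 and 5.89 in Tomato, with no overlap (2.92 ± 0.45). Adgrg3 (chromosome 8, 95017692 to 95045250, ENSMUSG00000060470), an adhesion G protein-coupled receptor gene, had 23.3, 19.5 and 14.0 CPM in GFP and 3.55, 2.01 and 1.38 CPM in Tomato. Its fractions were apart by 3.94 times at the closest (3.02 ± 0.34).

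Among the genes of secreted proteins, Mmrn1 (chromosome 6, 60924976 to 60989378, ENSMUSG00000054641) had the most reads of the set. It encodes multimerin, a protein of endothelium and platelets, and had 232, 153 and 149 CPM in GFP and 36.1, 22.5 and 8.44 CPM in Tomato (2.99 ± 0.49). The Tomato libraries differed by 4.27 times, with library 3 lowest. Reln (chromosome 5, 21884454 to 22344702, ENSMUSG00000042453) encodes reelin, which lymphatic endothelium secretes and which is also a marker of stellate cells in liver. It had 22.8, 16.7 and 14.1 CPM in GFP and 2.73, 1.54 and 1.005 CPM in Tomato, the widest gap of the set, with the lowest GFP library 5.18 times the highest Tomato library (3.33 ± 0.35). Nts (chromosome 10, 102481756 to 102490486, ENSMUSG00000019890) encodes the precursor of the peptide neurotensin. Its CPM were 42.9, 25.2 and 23.6 in GFP and 6.23, 4.07 and 2.85 in Tomato (2.79 ± 0.35), and GFP library 1 again stood apart from the other GFP libraries.

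**Figure D1:**
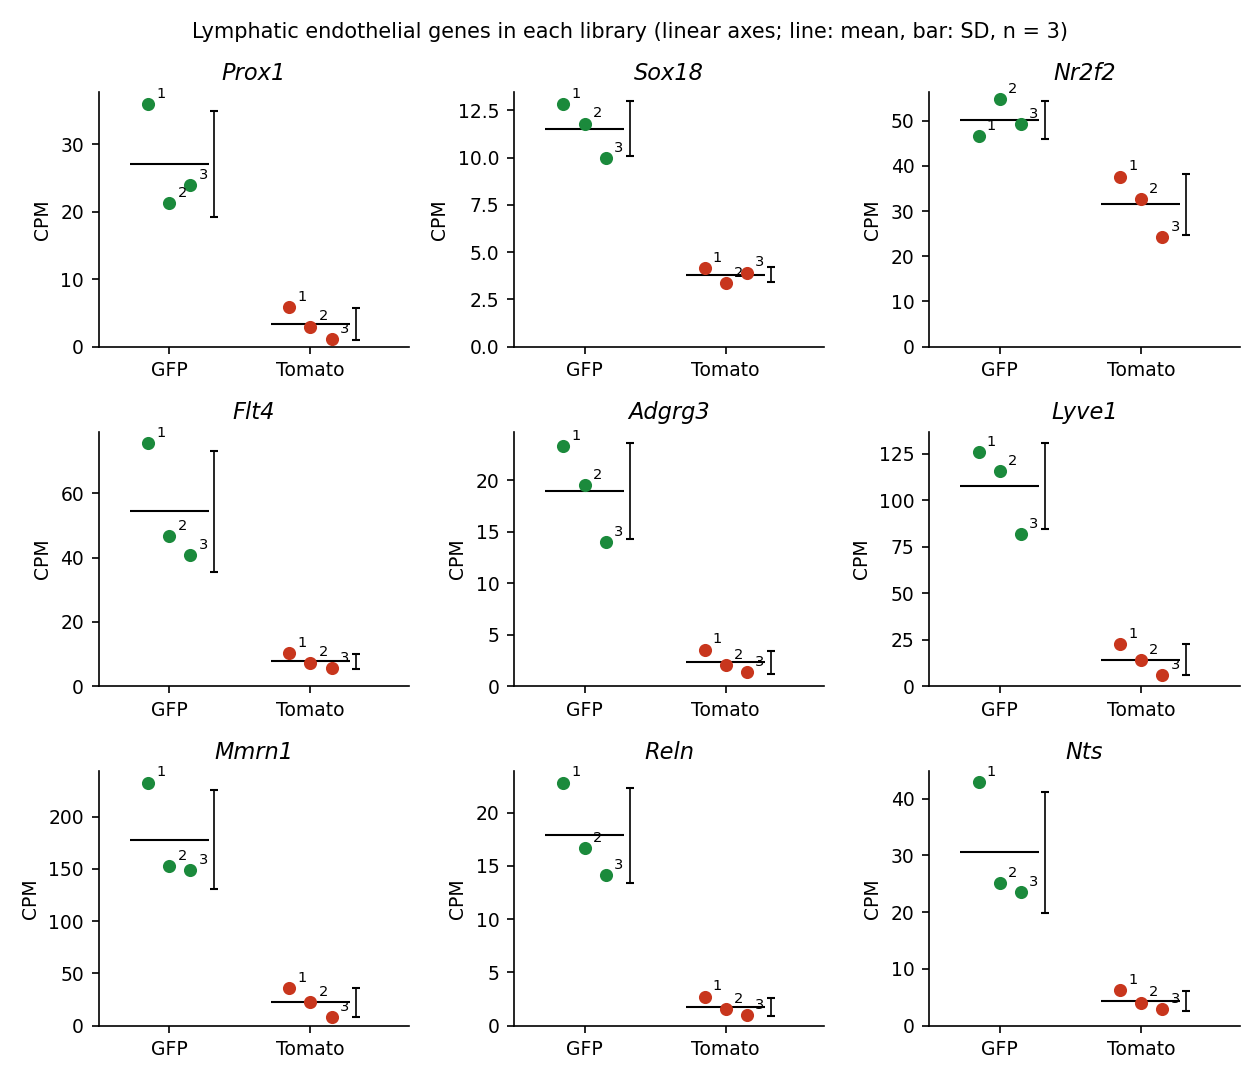
CPM (TMM-scaled, linear axes from 0) of the 9 genes with reads in each GFP (green) and Tomato (red) library, marked by replicate number, with the mean as a line and the SD as a bar (n = 3 per fraction). All 9 genes have every green point above every red point, closest for Nr2f2, where the lowest GFP library is 1.24 times the highest Tomato library.

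In all 9 genes with reads every GFP library exceeded every Tomato library, as was the case for 23.4% of the 15608 genes tested. All 9 passed the low-count filter, and 7 of them were at least 5-fold higher in GFP by the fit, a size reached by 0.314% of all genes tested. These counts repeat the contrast on which the set was chosen and support nothing further. The median log2 fold difference of the 9 genes was 2.92, beside 0.00 for all genes tested.

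To compare genes of unlike length, levels were set per kilobase of exon, with all annotated exons of a gene merged. The order thus depends on the annotation too. Lyve1 had the highest level in GFP (mean 36.9 CPM per kb), followed by Mmrn1 (30.3) and Nts (24.5). Sox18 (7.12), Flt4 (6.61) and Nr2f2 (5.82) lay close together, and Prox1 (3.22), Adgrg3 (2.74) and Reln (0.753) were lowest. The neighbours Sox18, Flt4 and Nr2f2 had overlapping libraries and are not ordered beyond their spread between libraries. The same holds for Lyve1 and Mmrn1, for Mmrn1 and Nts, and for Prox1 and Adgrg3. Within each GFP library, however, Lyve1, Mmrn1 and Nts ranked 1, 2 and 3, and Sox18 was above Nr2f2. The order of the 9 genes was much alike among the GFP libraries (Spearman's rho across the 9 genes 0.933 to 0.983). It was also alike between Tomato libraries 1 and 2 (0.983), and less so between Tomato library 3 and the other Tomato libraries (0.683 and 0.717). In Tomato library 3 the highest levels per kilobase were those of Nr2f2 (2.82) and Sox18 (2.41), while Lyve1 (2.02) and Mmrn1 (1.44) came after Nts (2.28). These rho values run across genes that share a library and are not independent replicates.

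Inside each fraction most of the genes had their highest and lowest levels in the same libraries. In 8 of 9 genes Tomato library 1 was the highest and Tomato library 3 the lowest of its fraction, an order found in 26.5% of all genes tested. Sox18 was the exception, with library 2 lowest. In GFP, library 1 was the highest for 8 of 9 genes, beside 34.9% of all genes, and Nr2f2 was the exception. With both orders combined the counts were 7 of 9 genes and 14.9% of all genes. The spread was wide as well. The median range over Tomato libraries was 1.35 on the log2 scale for the 9 genes and 0.30 for the 13283 genes with a mean of at least 1 CPM there, of which 2.79% exceeded the median of the 9 genes. Over GFP libraries the median range was 0.69 for the 9 genes and 0.26 for 12867 genes, of which 8.26% exceeded it. These orders are descriptions and were not tested.

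**Figure D2:**
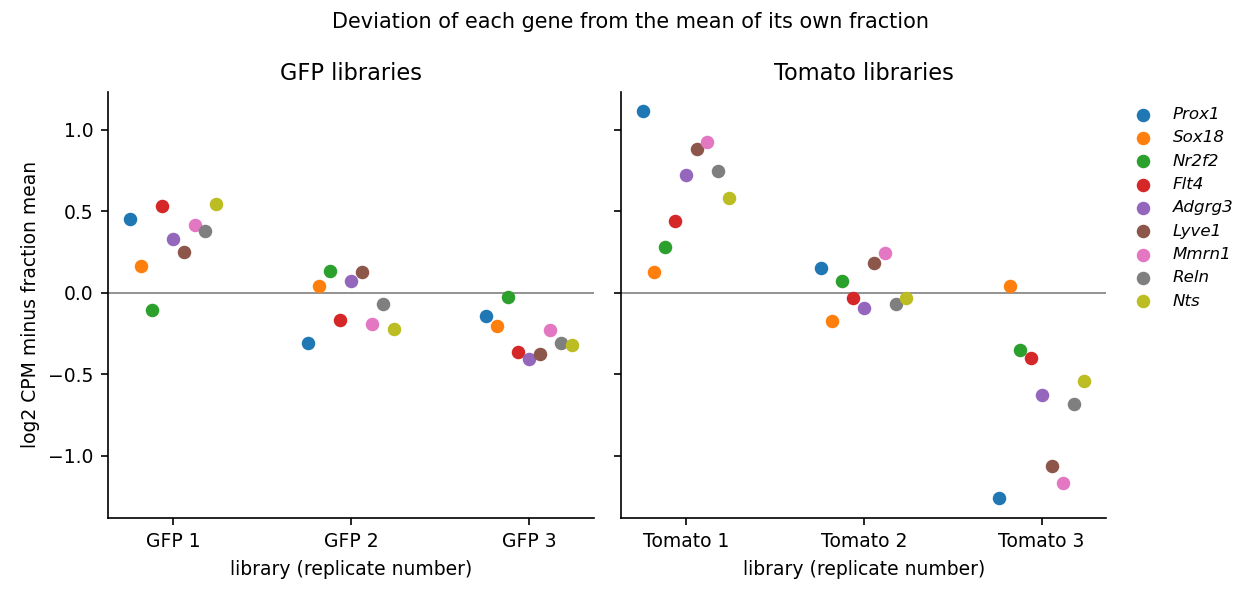
Deviation of log2 CPM from the mean of the gene's own fraction, for the 9 genes (colours) in the GFP libraries (left) and the Tomato libraries (right). Tomato library 1 lies above the mean for all 9 genes and Tomato library 3 below it for 8 of 9, with Prox1 spreading widest and Sox18 least among Tomato libraries.

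Levels were next set against Cdh5, which encodes the cadherin of all endothelial junctions, in the same library. Cdh5 itself had 17.4, 10.3 and 8.03 CPM in GFP and 2.12, 1.11 and 0.516 CPM in Tomato, the last from 19 reads. Its log2 difference between the fractions, 3.23, was the highest of 12 pan-endothelial markers, whose median was 1.95. Any overlap of the ratios therefore depends on this choice of reference. Relative to Cdh5, 7 of the 9 genes had overlapping fractions: Prox1, Flt4, Lyve1, Mmrn1, Reln, Nts and Adgrg3. The log2 ratio of Prox1 to Cdh5 was 1.22 ± 0.31 in GFP and 1.33 ± 0.19 in Tomato (SD, n = 3), and that of Mmrn1 was 3.95 ± 0.24 and 4.16 ± 0.17. Over the 6 libraries the Prox1 ratio ranged over 0.53 on the log2 scale. The ratio of Reln was 0.63 ± 0.22 in GFP and 0.60 ± 0.32 in Tomato. Sox18 and Nr2f2 behaved otherwise: their ratios to Cdh5 were lower in every GFP library than in any Tomato library, at 0.02 ± 0.40 against 1.83 ± 0.996 for Sox18 and 2.15 ± 0.64 against 4.86 ± 0.71 for Nr2f2. Kdr, a VEGF receptor gene of blood endothelium, also parted from Cdh5 (1.72 ± 0.26 against 5.53 ± 1.10). So did the pan-endothelial gene Pecam1 (1.13 ± 0.25 against 2.35 ± 0.55), while the ratios of the endothelial genes Tie1 and Cldn5 overlapped. The reference first planned, in place of Cdh5, was the summed CPM of 12 pan-endothelial markers. Against that sum the median log2 ratio of the 9 genes was 2.80 higher in GFP, and none of the 9 had overlapping fractions. Cd34 and Eng, which fibroblasts express too, made up 84.1% to 91.8% of that sum.

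**Figure D3:**
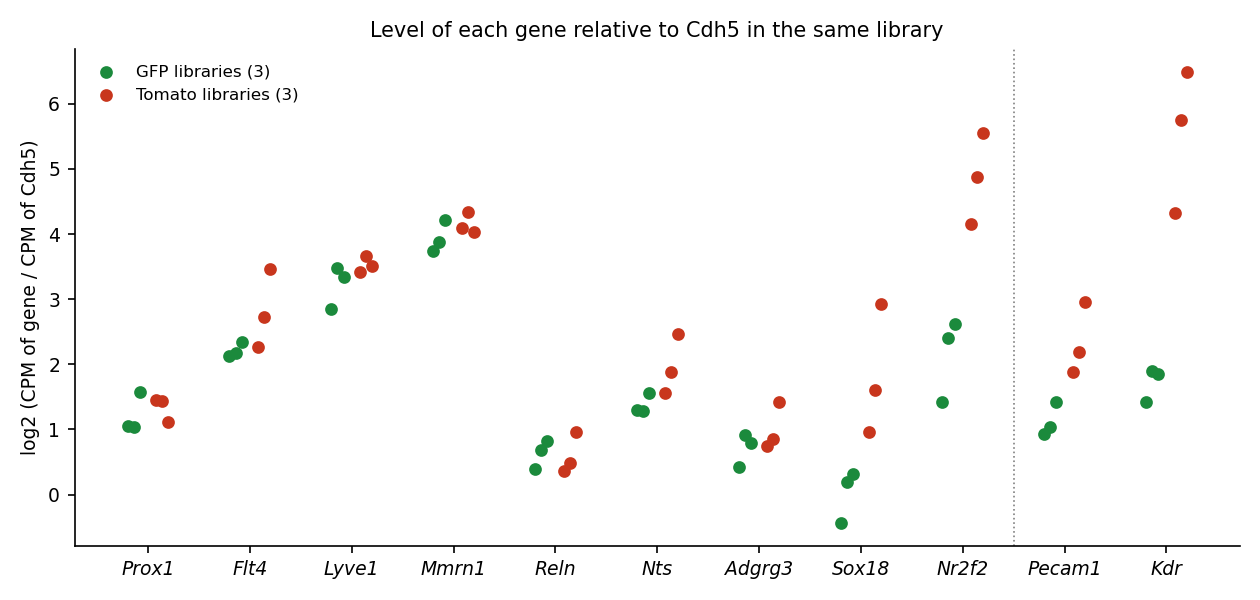
Log2 ratio of each gene's CPM to that of Cdh5 in the same library, for the 9 lymphatic genes and, right of the dotted line, the endothelial genes Pecam1 and Kdr (green: 3 GFP libraries, red: 3 Tomato libraries). Green and red points overlap for Prox1, Flt4, Lyve1, Mmrn1, Reln, Nts and Adgrg3 and are apart for Sox18, Nr2f2, Pecam1 and Kdr.

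The genes with the most similar profiles were sought by the root mean square difference, over the 6 libraries, between gene-centred log2 CPM and the mean profile of Prox1, Flt4, Lyve1 and Mmrn1. Among 10714 protein-coding genes with at least 5 CPM in the higher fraction, with the members among them, the nearest non-members were Tie1 (0.14), Myct1 (0.16), Angpt2 (0.19), Cdh5 (0.20), Cldn5 (0.21), Rasip1 (0.23), Myzap (0.23), Mmrn2 (0.24), Sox7 (0.26) and Klhl4 (0.30). The median of all such genes was 1.64. Tie1 (a receptor of the angiopoietin system), Cdh5, Cldn5 (a tight junction claudin) and Mmrn2 are widely used endothelial genes. Tie1 had 31.0, 24.0 and 23.4 CPM in GFP and 4.76, 2.70 and 1.44 CPM in Tomato. Among the members outside the reference profile, Adgrg3 (0.21), Reln (0.23) and Nts (0.27) were as near as these genes, while Sox18 (0.92) and Nr2f2 (1.28) were far from it. The likeness includes the difference between the fractions, which the choice of the set used.

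Other genes of lymphatic growth were compared by edgeR's quasi-likelihood test, two-sided, with p-values adjusted over all 15608 genes. By that test 28.9% of all genes passed (adjusted p under 0.05), 13.1% as higher and 15.7% as lower in GFP. These shares depend on the libraries and the scaling: the 2049 higher and 2456 lower genes became 833 and 1528 without Tomato library 2, 920 and 1380 without GFP library 1, and 1195 and 1551 without GFP library 3. They became 1128 and 3851 with library size only, and 2891 and 1589 with offsets for transcript length and GC content. Of 10 genes of lymphatic growth factors and their processing, 3 were higher in GFP and none lower, with 7 not passing and a median log2 fold change of 0.39. Vegfc, which encodes the main lymphatic growth factor, averaged 29.3 ± 1.15 CPM over GFP and 28.7 ± 2.44 over Tomato libraries (0.03 ± 0.10, adjusted p = 0.85). With offsets for transcript length and GC content the Vegfc difference was 0.36 (adjusted p = 0.0302). Vegfd stood at 304 ± 61.4 and 241 ± 72.1 CPM (0.34, adjusted p = 0.317). Angpt2, a ligand that lymphatic vessels need to mature, was higher in GFP (37.4 ± 17.3 against 5.19 ± 3.35 CPM, 2.84 ± 0.52, adjusted p = 0.00886), though not when no low-count filter was applied (adjusted p = 0.0669). Among genes of proteases of the ADAMTS family, of which ADAMTS3 activates VEGF-C, Adamts14 was higher by 0.78 ± 0.12 (adjusted p = 0.00248) and Adamts3 by 0.65 ± 0.17 (adjusted p = 0.0214). The Adamts3 call was lost without GFP library 1 (adjusted p = 0.08), GFP library 3 (0.0663) or Tomato library 2 (0.072).

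Of 14 lymphatic receptor and signalling genes, 10 were higher in GFP and none lower (median 0.79). Nrp2, the co-receptor that binds VEGF-C with the Flt4 product, averaged 39.9 ± 7.37 CPM over GFP and 16.2 ± 1.66 over Tomato libraries (1.30 ± 0.15, adjusted p = 0.000663). Itga9, an integrin gene of lymphatic valves, had 110 ± 12.8 and 61.5 ± 3.98 CPM (0.84 ± 0.11, adjusted p = 0.00126). Of the 14 transcription factor genes of the lymphatic list, 13 were tested, and 6 were higher and none lower (median 0.57). Tbx1, which acts upstream of Flt4, averaged 9.04 ± 1.06 CPM over GFP and 0.770 ± 0.281 over Tomato libraries (3.54 ± 0.26, adjusted p = 0.000103), a larger log2 difference than that of any of the 9 genes. Sox7, a relative of Sox18, was higher by 2.99 ± 0.31 (adjusted p = 0.000443). The valve genes Foxc2 (1.33 ± 0.28, adjusted p = 0.0101) and Nfatc1 (1.02 ± 0.16, adjusted p = 0.00279) were higher too. Unlike most of the 9 genes, Foxc2 was lowest in library 1 of each fraction (4.39 CPM in GFP, 1.87 in Tomato). The other 7 genes of this list did not pass. Among them were Gata2 (0.43, adjusted p = 0.613), Klf2 (0.24, adjusted p = 0.108) and Klf4 (0.48, adjusted p = 0.0673). Sox17, a gene of arterial endothelium, did not reach the filter.

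Of 12 further lymphatic markers, 10 were tested, and 5 were higher and none lower in GFP (median 0.68). Ackr2, a scavenger receptor for chemokines on lymphatic vessels, had 23.0 ± 7.78 and 3.93 ± 1.67 CPM (2.54 ± 0.39, adjusted p = 0.00454). Stab1, a scavenger receptor gene of lymphatic and sinusoidal endothelium and of macrophages, was higher by 1.57 ± 0.19 (adjusted p = 0.00106). Piezo2, a mechanosensitive channel gene, was higher by 0.97 ± 0.10 (adjusted p = 0.000435). Of 12 pan-endothelial markers, 10 were higher (median 1.95), among them Cdh5 (3.23 ± 0.50, adjusted p = 0.00467) and Pecam1 (25.3 ± 6.86 against 5.64 ± 1.99 CPM, 2.16 ± 0.28, adjusted p = 0.00186). The lower one was Esam (-3.58, adjusted p = 0.000132). Of 12 blood endothelial markers, 11 were tested, and 5 were higher and none lower (median 0.69). That count was 3 without GFP library 1, GFP library 2 or Tomato library 2. The 5 in the main fit were Nos3 (log2 fold difference 1.84), Selp (1.73), Plvap (1.58), Ackr1 (1.13) and Sele (0.83). Kdr averaged 37.9 ± 8.73 CPM over GFP and 49.7 ± 9.06 over Tomato libraries (-0.39 ± 0.19, adjusted p = 0.151). With library size as the only scaling, which moved the median of all genes to -0.16, Kdr passed as lower (-0.56, adjusted p = 0.0434). Vwf, the gene of von Willebrand factor, was at 0.674 ± 0.227 and 0.653 ± 0.199 CPM (0.05, adjusted p = 0.936).

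**Figure D4:**
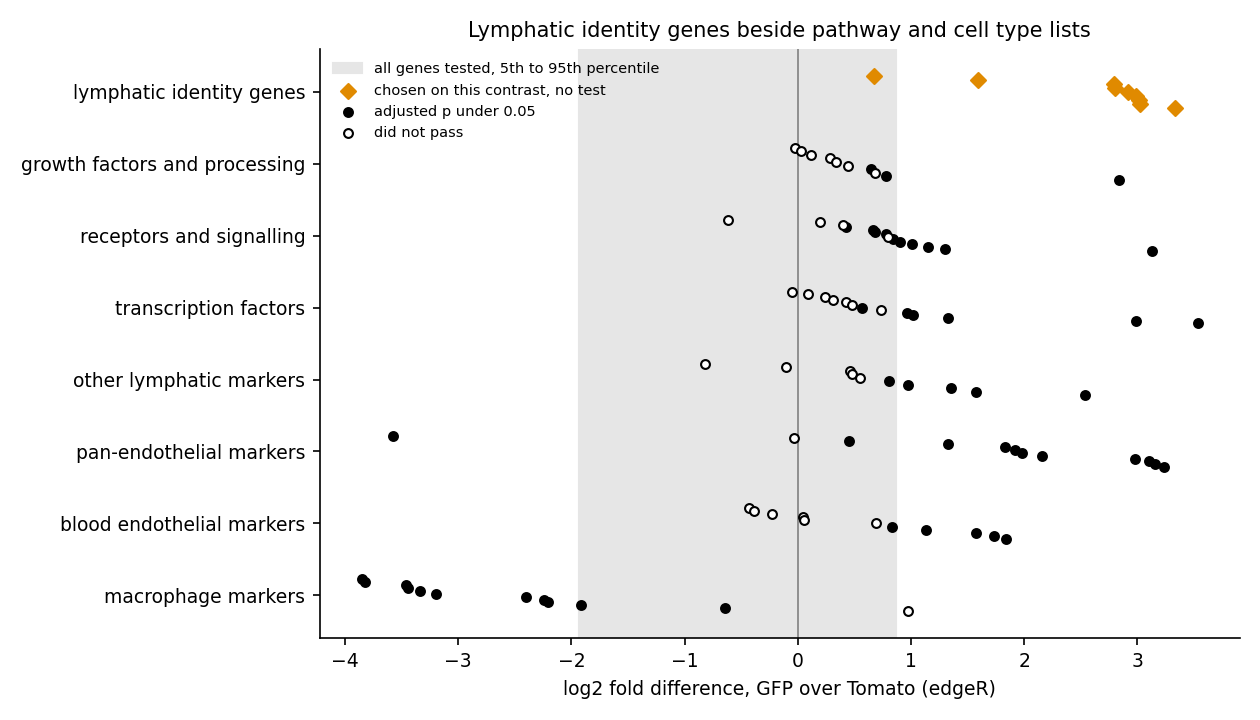
Log2 fold difference, GFP over Tomato (edgeR), for the 9 lymphatic identity genes (orange diamonds, not tested) and for tested genes of 7 lists (filled: adjusted p under 0.05, open: did not pass); the grey band spans the 5th to 95th percentile of all 15608 genes, -1.93 to 0.87. Most identity genes lie near 3, Sox18 at 1.60 and Nr2f2 at 0.67, while Vegfc and Vegfd are among the open points near 0.

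Markers of other cells moved between the fractions as well. Of 12 macrophage markers 11 were lower in GFP and none higher, with a summed level of 64.6 to 94.9 CPM in GFP and 362 to 833 CPM in Tomato, and none at 0 in all libraries. Csf1r, the receptor gene of macrophage growth, was at 18.6 ± 3.07 and 87.8 ± 30.8 CPM (-2.24, adjusted p = 0.00143). Mrc1 differed less (-0.64, adjusted p = 0.0463), and the marker that did not pass was Cd163 (0.97, adjusted p = 0.157). Macrophages can also express Lyve1, and their part in its reads was not tested. Of 8 mesothelial markers 7 were lower in GFP (145 to 166 CPM summed, against 1161 to 1451), and of 8 epithelial markers 5 were lower (97.4 to 120 against 427 to 511). Of 8 pericyte markers 7 were tested, and 3 were higher and 1 lower (124 to 183 against 136 to 225 CPM summed). Of 8 adipocyte markers 6 did not reach the filter and the other 2, Pparg and Fabp4, did not pass, with sums of 24.9 to 25.5 CPM in GFP and 24.3 to 26.1 in Tomato; Lep was at 0 in all libraries. Of the 10 fibroblast markers 6 were higher in GFP. The part of these shifts in the levels of the lymphatic genes was not tested.

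The bases upstream of the annotated starts of the set were read from RefSeq (GRCm38.p6), which held 9 start sites for 8 of the 10 genes, Ccl21a among them. The 250 bases before the start are shown for the 2 transcription factor genes with the widest and the narrowest gap between fractions and for a receptor and a secreted protein gene. They are read 5′ to 3′ on the gene's strand and lie outside the gene bounds given above. For Prox1, Nr2f2 and Reln the RefSeq start lies upstream of the GENCODE gene. The stretch just after it was not found whole in a GENCODE transcript of the gene. For Nr2f2 and Reln the window begins only a few bases beyond the gene (70366747 against 70366735, and 22344706 against 22344702). A stretch that crosses this edge cannot match whole, so the search does not show that the first exons differ. Of 2 Prox1 starts in RefSeq, the upstream one is shown, since the other lies inside the gene. These are Prox1 (chr1:190170828-190171077, minus strand), Nr2f2 (chr7:70366747-70366996, minus), Adgrg3 (chr8:95017442-95017691, plus) and Reln (chr5:22344706-22344955, minus). Capitals mark matches to the searched motifs.
Prox1: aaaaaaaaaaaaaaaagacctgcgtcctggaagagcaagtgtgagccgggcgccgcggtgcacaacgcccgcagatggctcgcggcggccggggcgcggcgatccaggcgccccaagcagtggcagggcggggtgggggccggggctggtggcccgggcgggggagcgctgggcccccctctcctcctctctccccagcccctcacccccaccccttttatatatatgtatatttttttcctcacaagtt
Nr2f2: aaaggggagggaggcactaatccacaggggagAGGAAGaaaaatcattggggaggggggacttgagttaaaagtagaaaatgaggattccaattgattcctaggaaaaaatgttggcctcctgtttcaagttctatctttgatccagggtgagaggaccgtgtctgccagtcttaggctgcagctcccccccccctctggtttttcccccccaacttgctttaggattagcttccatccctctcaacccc
Adgrg3: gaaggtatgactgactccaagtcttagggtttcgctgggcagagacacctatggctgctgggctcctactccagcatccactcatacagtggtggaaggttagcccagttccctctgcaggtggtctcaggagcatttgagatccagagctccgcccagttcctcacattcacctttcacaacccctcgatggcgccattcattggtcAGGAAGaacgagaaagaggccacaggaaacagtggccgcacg
Reln: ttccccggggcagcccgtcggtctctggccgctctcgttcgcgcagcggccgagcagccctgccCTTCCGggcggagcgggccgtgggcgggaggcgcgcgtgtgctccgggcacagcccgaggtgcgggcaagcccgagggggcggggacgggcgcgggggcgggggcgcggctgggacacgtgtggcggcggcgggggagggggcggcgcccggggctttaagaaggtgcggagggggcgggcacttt
Short motifs were sought on both strands, and matches of different motifs may overlap. The SOX motif was ACAAT, found in 1 of the 9 windows (Mmrn1) and in 27.7% of 32851 windows of that length over all genes. The first ETS motif was CGGAAG, found in 1 window (Reln, on the opposite strand) and in 13.6% of all. The second ETS motif was AGGAAG, found in 3 windows (Ccl21a, Nr2f2 and Adgrg3) and in 29.5% of all. The GATA motif was AGATAA, found in 1 window (Nts) and in 9.99% of all. The nuclear receptor half-site AGGTCA (14.0% of all) and the forkhead motif GTAAACA (3.17% of all) were in none of the 9. These matches describe letters in a window and show no binding.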

How the data were processed

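The authors deposited raw read counts per Ensembl gene, 1 table per library, with columns for both strands together and for each strand, per the file headers. Libraries were made from 150 ng of total RNA with a TruSeq kit, per the labels' protocols. Trim Galore 0.4.3, STAR 2.5.2b and the build GRCm38 are named in the submitters' processing notes, with no roles. The annotation release and filters are not given in the sources used here. Names, positions (1-based) and exon lengths came from GENCODE M21 (GRCm38), which matched 49412 of 49671 identifiers.

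The column for both strands was used, since the strand columns held near equal counts (ratio 1.002 to 1.006), so antisense reads cannot be told apart. GFP was compared with Tomato by edgeR 4.0.16 in R 4.3.3 (glmQLFit with robust estimation, glmQLFTest, TMM, filterByExpr, no block), with Benjamini-Hochberg adjustment over 15608 genes and a threshold of 0.05. SE were derived from the fold change and F. Log2 CPM had a prior count of 0.5. Total reads per library (33378377 to 42154933) set the precision, and the lowest levels rest on the fewest reads.

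The members and lists were chosen with earlier results of these data known. Named were all members, in each of the 3 pathway lists up to 2 higher and 2 lower genes with the smallest adjusted p, the 10 genes nearest in profile, and Cdh5, Pecam1, Kdr, Vwf, Pdpn and Fabp4. Named after their values were seen were Vegfc, Vegfd, Adamts3, Foxc2, Nfatc1, Sox17, Ackr2, Stab1, Piezo2, Esam, Cd34, Eng, Csf1r, Pparg, Lep and Ccl19. So were Nos3, Selp, Plvap, Ackr1, Sele, Mrc1, Cd163, Gata2, Klf2 and Klf4. Alternatives were 3 other scalings, 2 other filters, DESeq2 1.42.0, limma-voom (limma 3.58.1), no robust estimation, the replicate number as a block, 1 strand column, offsets for length and GC content (splines with 4 degrees of freedom) with and without the block, and leaving out each library.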

Additional observations from a re-analysis of the deposited data

How the results depend on the processing

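The 9 genes with reads kept a positive log2 difference in all 18 alternatives, from 0.51 (lowest, Nr2f2) to 3.79 (highest, Reln). Their median of 2.92 ranged from 2.59 to 3.43 when 1 library was left out, with 3.43 without Tomato library 1, and Prox1 ranged from 2.60 to 3.70. Sox18 was at 1.81 with length and GC offsets. The ratio to endothelial genes turned with its reference, from 2.80 against the list to -0.30 against Cdh5 alone; Cd34 and Eng dominate the list.

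The main counts over all genes were 2049 up in GFP and 2456 down. Scaling by library size only gave 1128 and 3851, and with length and GC offsets, which moved the median of all genes to 0.12, 2891 were higher and 1589 lower. Leaving out 1 library gave 833 to 2392 higher and 1380 to 2793 lower genes. Such fits also gave 3 to 5 higher blood endothelial markers, and 0 to 1 lower among receptors and among further lymphatic markers. With no filter 1 further lymphatic marker was lower, and with library size only 1 blood endothelial marker was lower. The cause was not tested.

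Deviations from the fraction mean, compared between GFP and Tomato libraries sharing a number, correlated at 0.379, 0.0867 and 0.318, not all above 0.1, so the numbers were not taken to pair them; with a prior count of 2 the values were 0.403, 0.108 and 0.347. Each library correlated best with its own number. Adding the replicate block gave 3137 higher and 3256 lower genes; 5 growth factor genes were higher, and 1 further lymphatic marker was lower; Vegfd passed (0.37, adjusted p = 0.0439, edgeR). With the block and length and GC offsets 4160 genes were higher and 2095 lower. That fit gave 7 growth factor genes and 8 further lymphatic markers as higher, 1 further lymphatic marker and 1 blood endothelial marker as lower, and Pdpn as higher (0.27, adjusted p = 0.0189).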

Other observations

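Ccl19, which lies beside Ccl21a on chromosome 4 and encodes a chemokine of the same receptor, was listed at 0 reads in GFP library 1, beside 198 and 196 reads in GFP libraries 2 and 3 and 242, 123 and 75 reads in Tomato libraries 1, 2 and 3. It was singled out after its values were seen. A second Ccl19 identifier on an unplaced scaffold had 0 reads in all 6 libraries.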
